A study of Mus musculus with 28 samples.

Results

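The genes described here are 36 named components of the antioxidant, glutathione and thioredoxin systems. They were taken by gene symbol, and each of the 36 was found in the deposited tables of 55291 genes. RNA was sequenced in 28 mouse libraries that fall into 8 groups, in a study of glucose transporters in tumour cells and in the T cells that react to them. LLC cells come from a mouse lung carcinoma. BAY-876 blocks the glucose transporter GLUT1, and TNF is an inflammatory cytokine. The first culture experiment exposed wild-type LLC cells for 36 h to 200 nM BAY-876 (3 libraries) or to its vehicle (3 libraries). The second began with 24 h of 200 nM BAY-876 or no drug in wild-type LLC cells, after which TNF at 20 ng/ml was added, or left out, over a further 32 h. This gave control, BAY-876, TNF and combined groups of 3 libraries each, and the labels do not say whether BAY-876 stayed on during the 32 h. The treatment labels of 2 combined libraries give other compound numbers than BAY-876, and these libraries were grouped by their titles. The third experiment comprised tumour cells (5 libraries) and OT1 T cells (5 libraries), sorted from tumours on day 16. OT1 cells are CD8 T cells with a transgenic receptor for an ovalbumin peptide. The tumours were LLC cells carrying ovalbumin and NGFR, grown under the skin of Rag1 knockout mice, which lack mature lymphocytes apart from NK cells but keep myeloid cells. The OT1 cells were activated and injected into a tail vein on day 9, so every tumour library of day 16 also comes from a mouse that received T cells. The culture and tumour groups rest on 1 cell line, LLC, whereas the OT1 cells are T cells from mice. The labels do not say that replicates were separate cultures or mice, so each p-value measures the spread between these libraries, which may be technical.

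Cells make reactive oxygen species in respiration and in signalling, and remove them with linked enzyme systems. The transcription factor NRF2, encoded by Nfe2l2, is held for degradation by KEAP1. When oxidants or electrophiles modify KEAP1, NRF2 accumulates and activates genes through antioxidant response elements. Its targets build glutathione, keep glutathione and thioredoxin reduced, and detoxify haem and electrophiles. Glutathione peroxidases and peroxiredoxins reduce peroxides, superoxide dismutases turn superoxide into hydrogen peroxide, and catalase breaks hydrogen peroxide down. Both the glutathione and thioredoxin systems draw on NADPH, which is made largely from glucose in the pentose phosphate pathway.

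The antioxidant response element is the stretch of promoter through which NRF2 acts, so the matches found near the starts of the member genes are shown first. The element core TGACNNNGC was searched on both strands in RefSeq promoter windows of GRCm38.p6, from 250 bases before to 50 after each annotated start. Of the 36 genes, 30 had such a window, 42 windows in all. Hmox1, Gclc, Gsr, Gsta4, Prdx6 and Abcc1 had none. The core was present in 7 of the 42 windows (16.7%), against 12.4% of all 32851 windows of the table. It lay in Nfe2l2, Gclm, Mgst1, Txnrd1, Prdx1 and Sod1 before the start, and in Srxn1 at 29 bases after it. The stretches around the match in 5 genes are printed 5′ to 3′ on the strand of the gene, with the match in capitals, since these genes respond differently below. In Nfe2l2 the match reads forwards, and in the others it is the reverse complement of the core.
Nfe2l2: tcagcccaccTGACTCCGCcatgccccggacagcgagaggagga
Gclm: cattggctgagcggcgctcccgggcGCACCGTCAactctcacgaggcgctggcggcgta
Txnrd1: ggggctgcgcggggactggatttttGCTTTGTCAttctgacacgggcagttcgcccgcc
Prdx1: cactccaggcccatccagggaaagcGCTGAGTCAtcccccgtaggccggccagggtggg
Sod1: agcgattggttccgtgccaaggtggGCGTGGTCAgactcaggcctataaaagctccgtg
The Nfe2l2 stretch is chr2:75704870-75704913 on the minus strand, and the others are on the plus strand. They are chr3:122245398-122245456 for Gclm, chr10:82859089-82859147 for Txnrd1, chr4:116685441-116685499 for Prdx1 and chr16:90220681-90220739 for Sod1. In GENCODE M21 the Txnrd1 stretch lies in an intron of a longer Txnrd1 transcript, and the Nfe2l2 stretch lies in an exon of E030042O20Rik, a noncoding transcript of the opposite strand. The AP-1 site TGANTCA, which can overlap this core and does so in Prdx1, was present in 11.9% of member windows and 7.81% of all windows. The genes were Gstp1, Glrx, Srxn1 and Prdx1. The NF-kappaB site GGGNNTTTC was present in 4.76% and 4.36%, the member genes being Mgst1 and Txn1. A match is a description of these letters only.

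Summed normalized counts, scaled between libraries by the authors, were 16848000 to 17134500 per library at 36 h. The 32 h and day 16 tables hold TPM, so sequencing depth is not known for any of the 3 experiments. Within a group, libraries had Pearson correlations of 0.984 to 0.989 in culture and 0.914 to 0.989 on day 16 across log2 values. All 6 LLC markers were above the minimum of 10 normalized counts or 1 TPM in every culture group, and Adgre1, C1qa, Fcgr3, Itgam and Tyrobp, defining myeloid markers, were at 0 in each of the 18 culture libraries. Of the 12 myeloid markers, 2 to 4 were above that minimum in each culture group, Cd14 and Cd68 in every one and Lyz2 in all but the TNF and combined groups. Cd14 read 113 to 148 normalized counts at 36 h and 8.55 to 21.1 TPM at 32 h. All 8 T cell markers were above 1 TPM in OT1 cells, with sums of 4556 to 7566 TPM against 3.93 to 8.93 in tumour cells. OT1 libraries also carried all 12 myeloid markers, with sums of 868 to 12311 TPM against 36.4 to 119 in tumour cells, so these libraries stand apart from their label in part, and day 16 results are given with and without the 3 richest. The 6 LLC markers were above 1 TPM in OT1 cells as well, with sums of 45.9 to 199 TPM against 1500 to 1779 in tumour cells.

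In control LLC cells the members summed to 6547 to 6619 TPM and spanned a wide range of levels, which TPM allows to be compared between genes because it is per length. The most abundant were Sod1, the cytosolic superoxide dismutase, at 856 ± 15.5 TPM (mean ± SD, n = 3), and Gstp1, a glutathione transferase, at 731 ± 15.6. Txn1, cytosolic thioredoxin, followed at 708 ± 11.0 TPM and Prdx1, a cytosolic peroxiredoxin, at 648 ± 11.5. Gstp1 and Txn1 did not differ beyond their spread. At the low end stood Hmox1 at 26.6 ± 0.462 TPM, Aifm2 at 20.1 ± 2.18, Gss at 18.1 ± 0.545 and Nqo1 at 10.6 ± 2.04. Gpx7, an endoplasmic reticulum peroxidase, was listed at 0 TPM in all 12 libraries of the 32 h experiment and so was not tested in culture.

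After 36 h of BAY-876, 4 of the 35 members tested rose and 0 fell. They were haem oxygenase Hmox1, the omega-class transferase Gsto1, the regulator Nfe2l2 itself and Gpx4, the selenoprotein that reduces lipid hydroperoxides. Among all 12937 genes tested, 7.34% rose and 7.10% fell, and 4 of 35 (11.4%) is near the first of these shares. The test was limma on log2(normalized count + 1) with Benjamini-Hochberg adjustment over all genes, at a threshold of 0.05. Differences on this scale understate the change of low genes. At an unadjusted p under 0.05 there were 11 higher and 3 lower members. The median log2 fold change of the members was 0.09, against 0.00 for all genes.

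Hmox1 opens the haem ring to release biliverdin, iron and carbon monoxide. Its normalized counts were 629, 643 and 665 with vehicle and 1135, 1182 and 1125 with BAY-876. The groups were far apart, and the gene rose 1.78-fold (log2 0.83 ± 0.07 SE, limma adjusted p = 0.000286). Gsto1 read 2302, 2333 and 2124 against 2941, 2787 and 2783, also without overlap, and rose by log2 0.33 ± 0.06 (limma adjusted p = 0.00813). Nfe2l2 read 1721, 1709 and 1689 against 2020.1, 2072 and 1952, a rise of log2 0.24 ± 0.05 (limma adjusted p = 0.0219). Its partner Keap1 read 1630.0, 1608 and 1596 against 1589.9, 1558 and 1508, log2 -0.05 (limma adjusted p = 0.551). Gpx4 read 2616, 2586 and 2563 against 3222, 2894 and 3018, log2 0.23 ± 0.06 (limma adjusted p = 0.0266). The rises of Nfe2l2 and Gpx4 were lost when any one vehicle library was left out, and Hmox1 and Gsto1 kept theirs under all alternatives run. Nfe2l2 was also lost without BAY-876 replicate 2, and Gpx4 without BAY-876 replicate 3. The 5 fibroblast markers summed to 16746 to 17820 normalized counts with vehicle and 21474 to 23146 with BAY-876. Of these sums Col3a1 alone made up 15503 to 16715 and 20523 to 21844. Dcn was at 7.06 to 19.9 and 22.2 to 32.1, and Col1a1, at 1.91 to 5.84 and 1.01 to 6.20, overlapped, as did Pdgfrb and Pdgfra. The part of these markers in the members' values was not tested.

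BAY-876 replicate 1 at 36 h read high for several members. Txn1 was at 5247, 5362 and 5147 with vehicle and 7307, 5639.6 and 5963 with BAY-876, and Sod1 at 2416, 2372 and 2349 and 3298, 2688 and 2642. In both genes replicate 1 is the high BAY-876 library, and its members summed to 85539 normalized counts against 78407 and 79466 in the other BAY-876 libraries. Without it 9 members rose, the additional 5 being Txn1, Prdx1, Sod1, Cat and Blvrb. The remaining members that did not pass, Keap1 and Gclm included, lay within 0.42 of 0 on the log2 scale. Of the synthesis genes, Gclm, the modifier subunit of the enzyme that limits glutathione synthesis, had the lowest value, 1423, 1105 and 1403 against 1505, 1647 and 1475 (log2 -0.24, limma adjusted p = 0.14).

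A list of 64 further genes of these pathways, with cofactors of NRF2, other transferases, glutathione breakdown, thioredoxin partners and classic NRF2 targets, gave 49 tested genes at 36 h. Of these 10 rose and 4 fell. The largest rises were of Chac1, a glutathione-degrading enzyme, from 15.7 ± 2.95 to 169.7 ± 10.8 normalized counts (log2 3.36), Sesn2, a stress-induced sestrin, at 1018 ± 125 against 427 ± 17.9 (log2 1.24), and the cystine transporter gene Slc7a11 (log2 1.08). Txnip, which binds and inhibits thioredoxin and is induced by glucose, fell from 1332 ± 56.5 to 21.2 ± 7.53 (log2 -5.96). Gstt1 and Osgin1 fell by 0.75 and 0.59 on the log2 scale.

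In the second experiment BAY-876 alone lowered 19 of 35 members and raised 2. Those that fell were 4 glutathione transferases (Mgst1, Gstm1, Gstp1, Gsta4), 3 glutathione peroxidases (Gpx1, Gpx4, Gpx8), 4 peroxiredoxins (Prdx1, Prdx4, Prdx5, Prdx6), both thioredoxin reductases, and Cat, Glrx, Aifm2, Abcc1, Blvrb and Sod2. The synthesis genes Gclc, Gclm and Gss were not among them, nor were Gsto1, Prdx2 and Prdx3. Of all 12780 genes tested, 25.8% fell and 11.5% rose, against 54.3% and 5.71% of the members. The median log2 fold change was -0.19 for members and -0.09 for all genes, and the members summed to 5779 to 5893 TPM against 6547 to 6619 in control. With quantile normalization in place of the authors' scaling, the share of higher genes among all that passed went from 30.8% to 49.3%, yet 17 members still fell and 3 rose. The 6 LLC markers summed to 1313 to 1348 TPM in control and 1107 to 1120 with BAY-876, and the part of this in the members' values was not tested.

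Microsomal transferase Mgst1 read 25.9, 29.1 and 25.7 TPM in control cells and 14.7, 14.9 and 13.2 with BAY-876. This was the largest fall among the members, 1.83-fold (log2 -0.87 ± 0.09, limma adjusted p = 2.25e-05). Cat, the peroxisomal catalase, went from 27.2, 28.0 and 26.1 to 16.9, 14.3 and 13.8 TPM (log2 -0.82 ± 0.10, limma adjusted p = 7.45e-05). Glutaredoxin Glrx went from 48.6, 43.3 and 45.2 to 27.1, 26.2 and 27.4 (log2 -0.74 ± 0.06, limma adjusted p = 3.63e-06). In all of these genes the libraries of both groups were separate. Gstm1, a mu-class transferase, went from 139.9, 133 and 136 to 86.2, 78.0 and 82.2 (log2 -0.72 ± 0.05, limma adjusted p = 2.12e-06). Gpx8, a peroxidase of the endoplasmic reticulum, went from 54.8, 54.0 and 55.0 to 33.2, 35.4 and 34.2 (log2 -0.66 ± 0.05, limma adjusted p = 3.09e-06).

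Both thioredoxin reductases fell, while neither thioredoxin did. Cytosolic Txnrd1 read 200.3, 207 and 206 TPM in control and 139.7, 141 and 140.1 with BAY-876, with replicates within a few TPM of each other (log2 -0.54 ± 0.04, limma adjusted p = 2.94e-06). Mitochondrial Txnrd2 read 31.1, 29.2 and 29.3 and 18.7, 24.0 and 22.2 (log2 -0.45 ± 0.11, limma adjusted p = 0.00864). Mitochondrial thioredoxin Txn2 rose from 121, 124 and 128 to 135, 132 and 137 (log2 0.11 ± 0.04, limma adjusted p = 0.0319), a call lost without control replicates 1 or 2 or BAY-876 replicates 1 or 3. Txn1 read 746 ± 18.1 against 708 ± 11.0 (log2 0.08, limma adjusted p = 0.122). The authors' deposited table has both thioredoxins higher, Txn1 by log2 0.18 (adjusted p 0.000172) and Txn2 by 0.21 (adjusted p 0.00204). With quantile normalization Txn1 lay at log2 -0.0007. Among the others that fell, Aifm2, which encodes the ubiquinone reductase FSP1, changed by log2 -0.75 ± 0.18, the glutathione conjugate exporter Abcc1 by -0.46 ± 0.08 and Prdx5 by -0.39 ± 0.05. The remaining 9 (Gpx1, Prdx6, Blvrb, Gstp1, Prdx1, Gsta4, Prdx4, Sod2 and Gpx4) fell by 0.18 to 0.38. The calls of Blvrb and Gsta4 were lost with quantile normalization, and that of Blvrb also without control replicates 1 or 2 or BAY-876 replicate 2. Gpx4, Gsta4, Prdx4, Sod2 and Blvrb had an adjusted p above 0.05 in the authors' deposited table.

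Hmox1 was the other riser, at 26.2, 26.4 and 27.1 TPM in control and 32.8, 35.1 and 35.9 with BAY-876, without overlap (log2 0.37 ± 0.06, limma adjusted p = 0.000582). Nfe2l2 read 73.6, 74.9 and 76.7 and 71.2, 73.0 and 72.8 (log2 -0.05, limma adjusted p = 0.391), and Keap1 43.6, 45.7 and 42.7 and 46.5, 47.5 and 45.6 (log2 0.08, limma adjusted p = 0.342). The 14 members that did not pass also include Gclc, Gclm, Gss, Gsr, Gsto1, Srxn1, Nqo1, Prdx2, Prdx3, Sod1 and Glrx2. None of the 14 lay further than 0.18 from 0 on the log2 scale in this fit. The authors' deposited table has some of them higher with an adjusted p under 0.05. These were Gsto1 (log2 0.27, adjusted p 0.000826), Gclc (0.24, 0.00186), Keap1 (0.18, 0.0121) and Txn1 (0.18, 0.000172). Of these, Gclc alone passed with quantile normalization (log2 0.21, limma adjusted p = 0.00987). Of the 52 further pathway genes tested, 10 rose and 16 fell. Sesn2 (log2 1.03), Chac1 (0.82) and the NRF2 partner gene Mafg (0.58) rose most. Txnip fell from 43.5 ± 0.684 to 0.491 ± 0.177 TPM (log2 -4.90), Gstt1 by 1.14 and the glutathione-breakdown gene Ggct by 0.95.

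**Figure D1:**
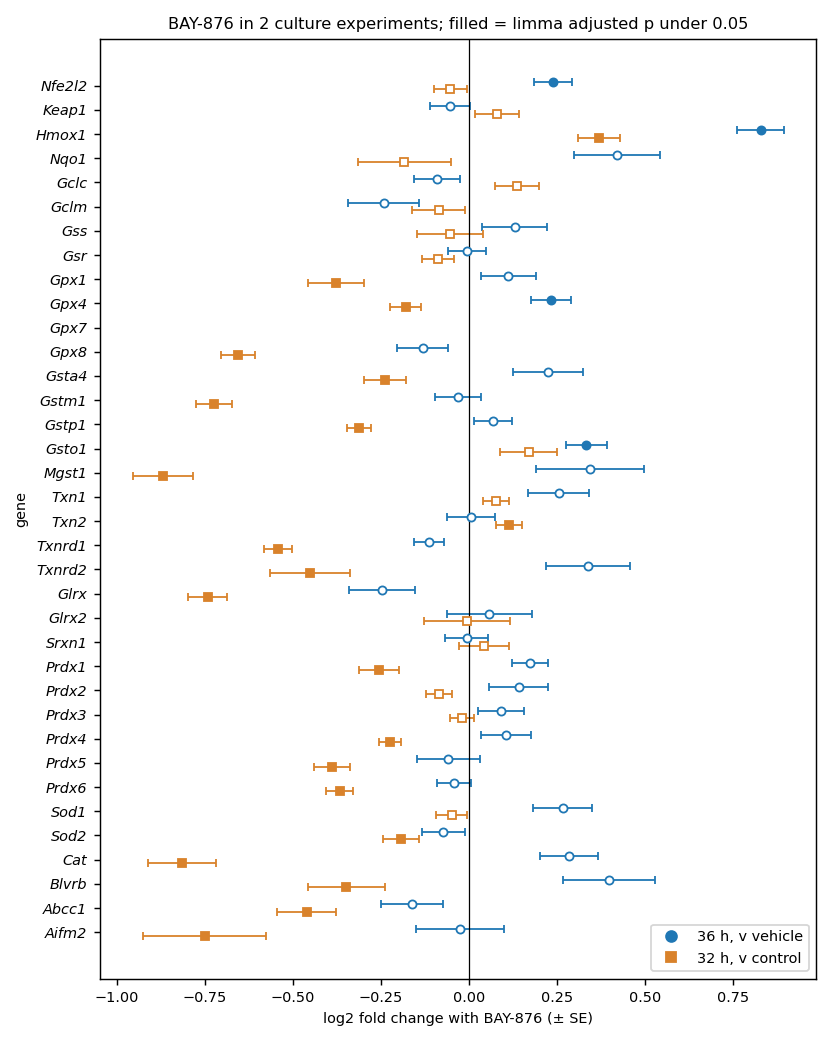
Log2 fold change with BAY-876 (x axis, point ± SE) of each member (y axis) in the 36 h experiment against vehicle (circles) and in the 32 h experiment against control (squares). Filled symbols passed limma's adjusted p of 0.05. Hmox1 is filled and right of 0 in both, while 19 squares and no circle are filled left of 0.

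Hmox1 was the only member that passed as higher in both BAY-876 experiments in the tests run here. Gsto1, which rose at 36 h, read 338, 303 and 355 TPM in control and 375, 387 and 358 with BAY-876 at 32 h. Its groups did not overlap there, but it did not pass. The authors' deposited table gives it log2 0.27 with an adjusted p of 0.000826. For 9 members the groups did not overlap in either experiment and lay in opposite directions, above vehicle at 36 h and below control at 32 h: Nfe2l2, Gpx4, Gsta4, Txnrd2, Prdx1, Prdx4, Sod1, Cat and Blvrb. These are 25.7% of the 35 members tested in both, and 5.01% of the 12086 genes tested in both had that pattern. Catalase shows the pattern most, at 596, 635 and 614 normalized counts with vehicle and 682, 769 and 799 with BAY-876 at 36 h (log2 0.28 ± 0.08, limma adjusted p = 0.0516), against its fall of 0.82 above. Of these 9, Gpx4 passed the test in both experiments, Nfe2l2 at 36 h alone, and Cat, Gsta4, Txnrd2, Prdx1, Prdx4 and Blvrb at 32 h alone. Sod1 passed in neither. In the authors' deposited table of the 32 h comparison the falls of 4 were smaller and had an adjusted p above 0.05. These were Gpx4 (log2 -0.08, adjusted p 0.216), Gsta4 (-0.14, 0.302), Prdx4 (-0.12, 0.0703) and Blvrb (-0.25, 0.258). Cat, Txnrd2 and Prdx1 had an adjusted p under 0.05 there. At 32 h Nfe2l2 lay at log2 0.026 with quantile normalization and at 0.047 in the authors' deposited table, and Sod1 at -0.066 with quantile normalization and at 0.051 in the authors' deposited table, so the direction of these 2 genes there changes with the source or scaling. The tables were scaled separately, and length of exposure and pretreatment differ between the experiments, so the difference was not tested.

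TNF alone raised 12 members and lowered 14 of 35, against 19.4% higher and 26.1% lower among all genes tested. Mitochondrial superoxide dismutase Sod2 rose most, and mitochondrial thioredoxin Txn2, the peroxiredoxin Prdx3, glutathione reductase Gsr and the synthesis genes Gclc and Gclm also rose, while Gss did not pass. The transferases Gstm1, Gsta4, Mgst1 and Gstp1 and the quinone reductase gene Nqo1 fell. Members had a median log2 fold change of 0.01 against -0.06 for all genes.

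Sod2, a textbook NF-kappaB target, read 164, 162 and 163 TPM in control cells and 423, 414 and 398 with TNF. It rose 2.51-fold (log2 1.33 ± 0.05, limma adjusted p = 3.60e-09). Txn2 rose from 121, 124 and 128 to 182, 178 and 190.3 (log2 0.56 ± 0.04, limma adjusted p = 3.12e-07), and the mitochondrial peroxiredoxin Prdx3, which Txn2 serves, from 110.4, 109 and 114 to 134, 135 and 137 (log2 0.28 ± 0.03, limma adjusted p = 3.60e-05). All of these groups were separate. Abcc1 rose by log2 0.47 ± 0.08, Gpx4 by 0.34 ± 0.04, Glrx by 0.28 ± 0.06 and Gclm by 0.26 ± 0.08. Txn1 (0.23), Gpx1 (0.23), Gsr (0.22), Gclc (0.18) and Prdx2 (0.15) rose less. The calls of Gclc and Gpx1 were each lost without control replicates 2 or 3 or TNF replicates 1, 2 or 3, that of Gclm without control replicates 2 or 3, and those of Gpx1 and Prdx2 with quantile normalization. The 12 myeloid markers summed to 13.2 to 15.1 TPM in control, 18.5 to 22.3 with BAY-876 alone, 18.1 to 18.4 with TNF and 21.9 to 24.5 with both. Of these sums Cd14 made up a mean of 9.22, 16.5, 15.1 and 20.1 TPM. The 5 fibroblast markers, none of them at 0 in a whole group, summed to 844 to 866 TPM in control, 361 to 425 with TNF and 304 to 347 with both. Of these sums Col3a1 made up 790 to 815, 336 to 398 and 287 to 329 TPM. Pdgfra and Pdgfrb were also lower with TNF and with both. Dcn was higher with both, at 1.71 to 3.61 TPM against 0.430 to 1.24 in control. Col1a1 was at most 0.229 TPM in any library of this experiment. The part of either list in these values was not tested.

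Gstm1 fell most, from 139.9, 133 and 136 TPM to 49.4, 49.8 and 49.5, 2.71-fold (log2 -1.44 ± 0.05, limma adjusted p = 1.77e-09). The 3 TNF libraries were almost equal. Gsta4, which conjugates lipid peroxidation products such as 4-hydroxynonenal, fell from 81.0, 70.4 and 73.8 to 34.4, 32.3 and 33.2 (log2 -1.15 ± 0.06, limma adjusted p = 4.73e-08). Blvrb, a biliverdin reductase, fell from 33.1, 34.5 and 29.3 to 17.6, 16.7 and 16.5 (log2 -0.89 ± 0.11, limma adjusted p = 4.43e-05). Nqo1, a quinone reductase and much-used NRF2 target, fell from 10.3, 12.8 and 8.80 to 5.33, 5.52 and 5.37 (log2 -0.85 ± 0.13, limma adjusted p = 0.000274). The libraries of the groups did not overlap in any of these. Cat fell by 0.69, Mgst1 by 0.47, Prdx4 by 0.42, Txnrd2 by 0.42, Prdx5 by 0.31 and Keap1 by 0.29 on the log2 scale.

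Nfe2l2 fell slightly, from 73.6, 74.9 and 76.7 to 69.2, 65.6 and 63.6 TPM (log2 -0.18 ± 0.05, limma adjusted p = 0.00691). The authors' deposited table gives this fall log2 -0.11 with an adjusted p of 0.142. Keap1 read 43.6, 45.7 and 42.7 and 36.6, 34.8 and 36.3. Sod1, Gstp1 and Gpx8 fell by 0.11 to 0.21, the calls of Gpx8 and Gstp1 being lost without control replicates 1, 2 or 3 or TNF replicates 1 or 2 for the first and control replicates 1 or 2 or TNF replicate 3 for the second, and that of Gpx8 also with quantile normalization. Hmox1, Gss, Gsto1, Txnrd1, Glrx2, Srxn1, Prdx1, Prdx6 and Aifm2 did not pass. Of 52 further pathway genes 13 rose and 19 fell. The carbonyl reductase gene Cbr3 (0.67), the small Maf gene Maff (0.59) and Akr1b8 (0.55) had the largest log2 rises. Txnip fell from 43.5 ± 0.684 to 11.8 ± 3.95 TPM (log2 -1.84), Mgst3 by 1.34 and Gstm2 by 1.16.

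Given after BAY-876, TNF raised 17 of 35 members and lowered 7, against 19.3% and 24.8% of all genes. The 12 members that rose with TNF alone are 12 of these 17, and the 7 are all among the 14 that fell with TNF alone. Those comparisons share no library. Of all genes that rose with TNF alone 76.1% rose again, which is 76.6% of those that rose after BAY-876, and of those that fell 71.7% fell again, which is 75.4%. The additional 5 risers were Hmox1, Txnrd1, Srxn1, Prdx6 and Gstp1. Sod2 went from 138, 138 and 152 TPM with BAY-876 to 423, 481 and 467 with both (log2 1.67 ± 0.05, limma adjusted p = 6.49e-10). Abcc1 went from 26.8, 22.9 and 21.7 to 45.6, 42.8 and 39.6 (log2 0.82 ± 0.08, limma adjusted p = 1.08e-05). Gclm went from 74.4, 68.1 and 64.1 to 119.9, 107 and 104 (log2 0.67 ± 0.08, limma adjusted p = 2.21e-05). In each the combined libraries were all above the BAY-876 ones. Srxn1, which reactivates overoxidised peroxiredoxins, rose by 0.28 ± 0.07, catalytic subunit gene Gclc by 0.28 ± 0.06 and Gsr by 0.31 ± 0.05. Txn2 (0.47), Txnrd1 (0.43), Prdx3 (0.43), Gpx4 (0.41), Prdx6 (0.32), Gpx1 (0.31), Glrx (0.29), Txn1 (0.24), Prdx2 (0.11) and Gstp1 (0.10) also rose, Gstp1 lying at 0.02 with quantile normalization. The call of Gstp1 was lost without BAY-876 replicates 1, 2 or 3 or combined replicates 2 or 3, and that of Prdx2 without BAY-876 replicates 1 or 2 or combined replicates 1, 2 or 3. The Prdx2 call was also lost with quantile normalization (log2 0.02, limma adjusted p = 0.759).

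The 7 that fell with TNF after BAY-876 were Gstm1 (log2 -1.06), Gsta4 (-0.64), Prdx4 (-0.59), Gpx8 (-0.41), Cat (-0.37), Mgst1 (-0.26) and Keap1 (-0.20). The call of Mgst1 was lost with quantile normalization (log2 -0.15, limma adjusted p = 0.213) and without BAY-876 replicates 1 or 2 or combined replicate 1, and that of Keap1 without BAY-876 replicates 1 or 2 or combined replicates 1 or 3. Prdx4, a secreted and endoplasmic reticulum peroxiredoxin, read 250.5, 244 and 244 TPM in control, 216, 205 and 212 with BAY-876, 185, 183 and 183 with TNF and 138, 141 and 140.5 with both. It stepped down across the 4 groups with no overlap, and its interaction did not pass (log2 -0.17, limma adjusted p = 0.0865). Among further pathway genes 12 rose and 16 fell. Slc7a11 rose by log2 1.24, Ggct by 0.85 and Cbr3 by 0.68, and Mgst3, Gstm2 and Gstt3 fell by 1.45, 0.97 and 0.85.

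With TNF present, BAY-876 raised 11 members and lowered 10, against 10.4% and 23.6% of all genes. The risers were Hmox1 with Blvrb, Nqo1, Gclm, Srxn1, Gsta4, Gsto1, Gclc, Nfe2l2, Sod2 and Prdx3. Hmox1 read 29.1, 26.4 and 27.6 TPM with TNF and 60.4, 53.6 and 56.8 with both. It rose 2.02-fold (log2 1.01 ± 0.06, limma adjusted p = 7.60e-07), and the combined libraries were above every other library of this experiment. Nqo1 read 5.33, 5.52 and 5.37 and 8.41, 7.64 and 6.05 (log2 0.37 ± 0.13, limma adjusted p = 0.0461). Gclm read 87.8, 89.4 and 85.4 and 119.9, 107 and 104 (log2 0.33 ± 0.08, limma adjusted p = 0.00579). Srxn1 read 55.7, 59.4 and 53.3 and 65.6, 77 and 67.6 (log2 0.31 ± 0.07, limma adjusted p = 0.00553). None of these pairs of groups overlapped. Blvrb changed by 0.54 ± 0.11, Gsta4 by 0.26 ± 0.06, Gsto1 by 0.26 ± 0.08, Gclc by 0.24 ± 0.06, Nfe2l2 by 0.24 ± 0.05, Sod2 by 0.15 ± 0.05 and Prdx3 by 0.13 ± 0.03. The calls of Nqo1, Sod2 and Gsto1 were lost without TNF replicates 1, 2 or 3 or combined replicates 1 or 2, without TNF replicates 1, 2 or 3 or combined replicates 2 or 3, and without TNF replicates 1 or 2 or combined replicates 2 or 3, respectively. Keap1 did not pass (log2 0.16, limma adjusted p = 0.0641), but passed with quantile normalization (log2 0.23, limma adjusted p = 0.0111) and without combined replicate 1. The authors' deposited table gives Keap1 log2 0.26 with an adjusted p of 0.0122, and Nqo1 log2 0.53 with an adjusted p of 0.0671.

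Of the 19 members lowered by BAY-876 alone, 9 were lowered again with TNF present, and these are 9 of the 10 lowered there. Of all genes lowered by BAY-876 alone 64.9% were lowered again, which is 71.0% of those lowered there. Gpx8 fell from 50.9, 47.0 and 51.7 to 25.4, 25.3 and 25.9 TPM (log2 -0.94 ± 0.05, limma adjusted p = 2.99e-07). Glrx fell from 59.1, 55.7 and 52.9 to 32.6, 33.1 and 33.3 (log2 -0.74 ± 0.06, limma adjusted p = 3.56e-06), the same log2 change as without TNF to 2 decimals. Mgst1 fell by 0.66, Cat by 0.49, Prdx4 by 0.39, Gstm1 by 0.35, Gpx1 by 0.30, Prdx5 by 0.16, Prdx2 by 0.13 and Gstp1 by 0.11. The calls of Prdx5, Prdx2 and Gstp1 were lost without TNF replicate 1 or combined replicates 1 or 3, without TNF replicate 3, and without TNF replicates 1 or 2 or combined replicates 1 or 2, respectively, and those of Prdx5 and Gstp1 also with quantile normalization. With quantile normalization the share of higher genes among all called went from 30.5% to 47.6%, with 12 members higher and 8 lower. Of the further pathway genes 14 rose and 15 fell. Chac1 (1.43), Sesn2 (1.29) and Slc7a11 (1.11) had the largest log2 rises, and Txnip, Gstt1 and Gstt3 fell by 3.12, 1.21 and 0.98.

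**Figure D2:**
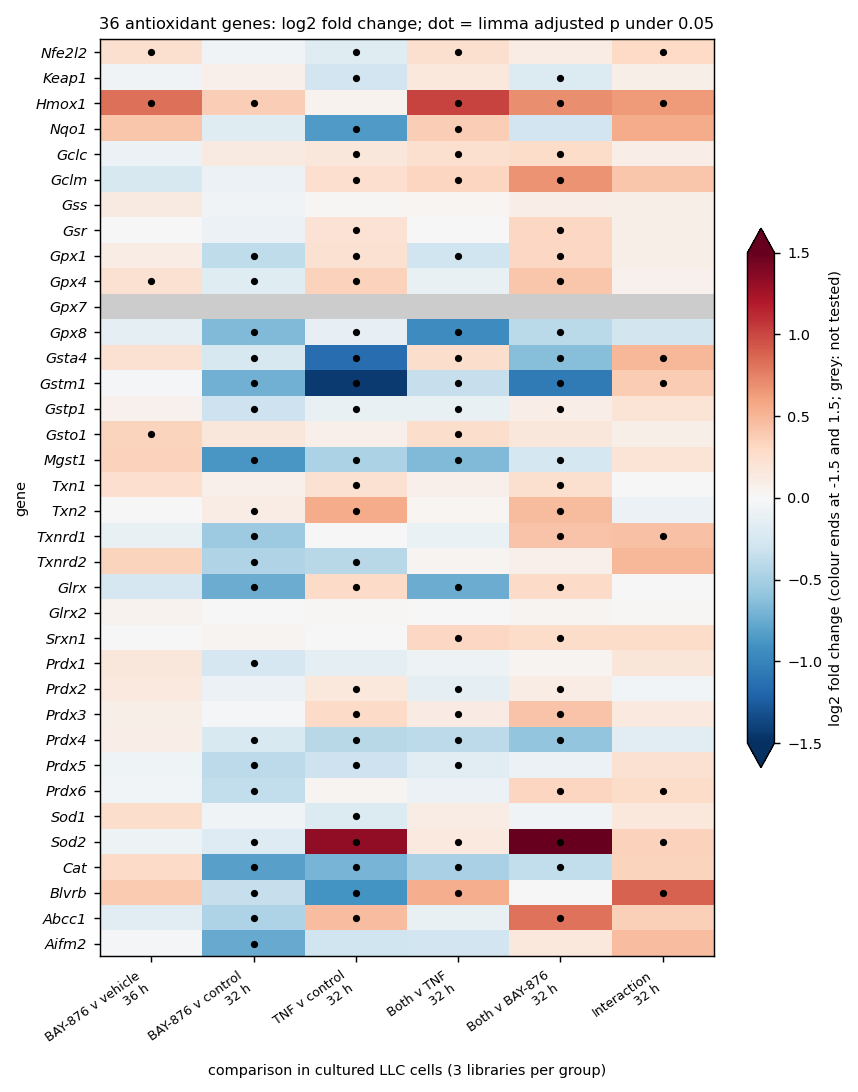
Log2 fold change (colour) of the 36 members (rows, in the order of the definition) in the 6 comparisons of cultured LLC cells (columns), with a dot where limma's adjusted p was under 0.05 and grey where Gpx7 was not tested. Hmox1 is red in each BAY-876 column, and the interaction column holds 8 dots, all on red.

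The interaction compares the response to BAY-876 with TNF present with the response without TNF. It was positive for 8 of 35 members and negative for 0, against 0.736% and 0.822% of the 12780 genes tested. The 8 were Blvrb, Hmox1, Gsta4, Txnrd1, Gstm1, Sod2, Nfe2l2 and Prdx6. Positive values had several forms: a rise that grew, a rise that passed only with TNF (Nfe2l2), a fall that became a rise, and a fall that shrank or was absent. At an unadjusted p under 0.05 there were 18 positive and 2 negative members. The median over members was 0.20 and that over all genes 0.00.

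Hmox1 (chr8:75093621-75100589, plus strand, GRCm38, as for the other genes) is the case of a rise that grew. BAY-876 changed it by log2 0.37 without TNF and 1.01 with TNF, and TNF alone by 0.06, so the combined level of 56.9 ± 3.40 TPM exceeded all single treatments (interaction 0.64 ± 0.08, limma adjusted p = 0.00379). Its neighbour in haem breakdown, Blvrb (chr7:27447978-27466144, plus strand), read 33.1, 34.5 and 29.3 TPM in control, 27.2, 20.5 and 28.3 with BAY-876, 17.6, 16.7 and 16.5 with TNF and 27.2, 23.2 and 24.9 with both. Here each single treatment lowered the gene, and the combined level was close to that with BAY-876 alone (interaction 0.89 ± 0.15, limma adjusted p = 0.0158). Gsta4 (chr9:78182774-78209349, plus strand) read 81.0, 70.4 and 73.8, 60.0, 64.8 and 65.3, 34.4, 32.3 and 33.2 and 38.4, 40.6 and 41.7 TPM in the same order. BAY-876 lowered it without TNF (-0.24) and raised it with TNF (0.26; interaction 0.50 ± 0.08, limma adjusted p = 0.0132). The falls of Blvrb and Gsta4 with BAY-876 alone did not pass with quantile normalization (limma adjusted p = 0.0687 and 0.0638). The authors' deposited table gave these falls an adjusted p of 0.258 and 0.302.

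Txnrd1 (chr10:82833951-82897712, plus strand) is the case of a fall that was not found with TNF. Its TPM were 200.3, 207 and 206 in control, 139.7, 141 and 140.1 with BAY-876, 202, 201 and 207 with TNF and 196, 196 and 178 with both. The BAY-876 libraries were below all others of this experiment (interaction 0.44 ± 0.06, limma adjusted p = 0.00337). Prdx6 read 492, 511 and 472, 375, 378 and 389, 510.4, 503 and 502 and 486, 451 and 488 in that order, with the same shape (interaction 0.28 ± 0.05, limma adjusted p = 0.0273). Sod2 and Nfe2l2 had interactions of 0.34 ± 0.07 (limma adjusted p = 0.0408) and 0.30 ± 0.06 (limma adjusted p = 0.0474), and Gstm1 of 0.38 ± 0.07 (limma adjusted p = 0.0225). Gstm1 fell with each treatment, to 41.3, 37.7 and 37.3 TPM with both, and by less in the second step. Hmox1, Txnrd1, Gsta4 and Blvrb kept their call under every alternative run, and Gstm1 lost it without control replicates 1 or 3, BAY-876 replicates 2 or 3 or TNF replicates 2 or 3. Prdx6 lost it without control replicates 1 or 2, BAY-876 replicates 1 or 2, TNF replicates 2 or 3 or combined replicate 1. Nfe2l2 kept it only without TNF replicate 1 or combined replicate 2 among the 12 such fits, and Sod2 only without BAY-876 replicate 3 or combined replicate 1. Leaving out 1 library gave 4 to 7 members, and for control replicate 1, BAY-876 replicate 2 and TNF replicates 2 and 3 it gave 4.

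**Figure D3:**
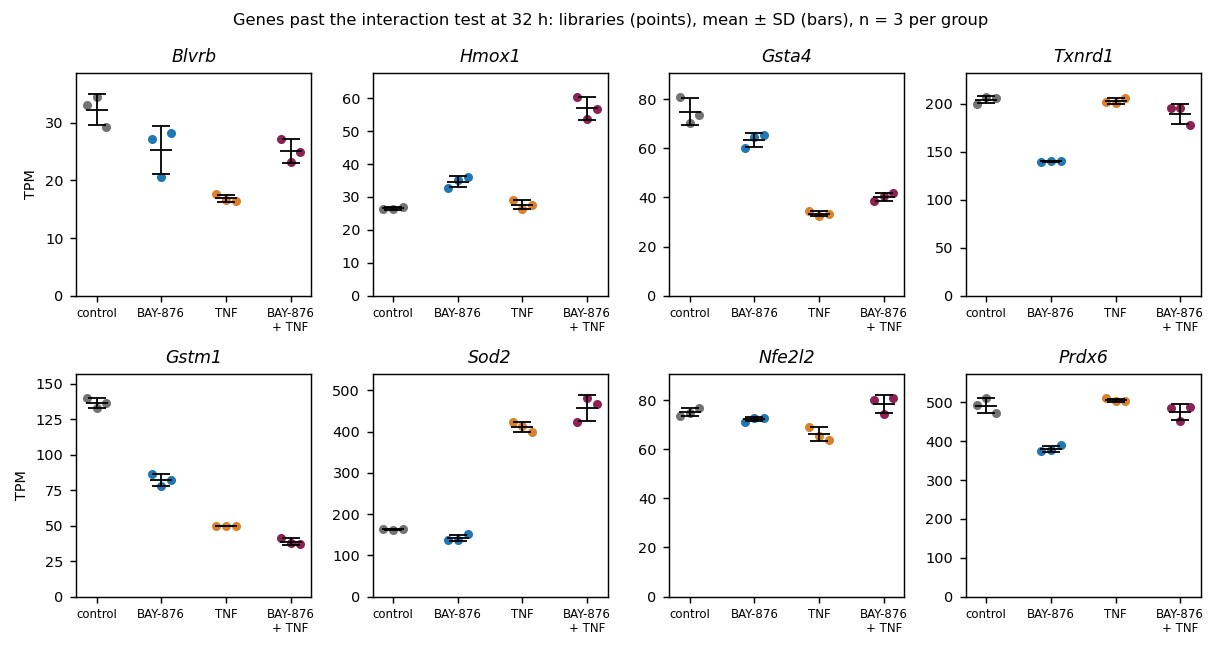
TPM (y axis, from 0) of the 8 members past the interaction test in the 4 groups of the 32 h experiment (x axis), with 1 point per library and bars for mean ± SD, n = 3 per group. Hmox1 is highest in the combined group at 53.6 to 60.4 TPM, and Txnrd1 is lowest with BAY-876 alone at 140 TPM.

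The other 27 members tested did not pass the interaction, Keap1 at 0.08 and Nqo1 at 0.56 among them (limma adjusted p = 0.735 and 0.182). Of 52 further pathway genes, 5 passed, all positive: Txnip (1.78), Chac1 (0.62), Sqstm1 (0.43), Pgd (0.27) and Fth1 (0.25). Pgd encodes an NADPH-making enzyme of the pentose phosphate pathway, Fth1 the ferritin heavy chain, and Sqstm1 the p62 protein that binds KEAP1. Txnip was below 1 TPM in both BAY-876 groups, with 0.491 ± 0.177 without and 0.431 ± 0.181 with TNF, beside 43.5 ± 0.684 in control and 11.8 ± 3.95 with TNF.

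The authors' deposited table of each 32 h comparison gave the same sign for every member called here, 21, 26, 24 and 21 in number. Its adjusted p was under 0.05 for 16 of the 21 with BAY-876, 23 of the 26 with TNF, 22 of the 24 with TNF after BAY-876 and 16 of the 21 with BAY-876 in TNF. The authors' deposited table values were higher by a median of 0.10, 0.07, 0.06 and 0.09 on the log2 scale. Some members not called here had an adjusted p under 0.05 there, all with a positive log2 fold change. They were Keap1, Gclc, Gsto1 and Txn1 with BAY-876, and Prdx6 with TNF. With TNF after BAY-876 they were Nfe2l2 and Gsto1, and with BAY-876 in TNF they were Keap1, Txn1 and Sod1. For Hmox1 the authors' deposited table gave 0.48 with BAY-876 and 1.13 with BAY-876 in TNF, and for Sod2 1.41 with TNF.

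In cells sorted from tumours on day 16, 23 of the 36 members were lower in OT1 T cells than in tumour cells and 5 were higher. The lower ones covered glutathione synthesis (Gclc, Gclm, Gss), reductases (Gsr, Txnrd1, Txnrd2), transferases, 4 peroxiredoxins (Prdx2, Prdx3, Prdx4, Prdx6) and Nfe2l2. The higher ones were Hmox1, Prdx5, Gpx7, Glrx and Cat. Of all 13511 genes tested, 44.4% were lower and 30.1% higher, against 63.9% and 13.9% of the members. Member transcripts summed to 3415 to 4706 TPM in OT1 and 6056 to 6571 in tumour libraries. The median log2 difference was -0.97 for members and -0.21 for all genes. Fewer cells of a type and less RNA per cell cannot be told apart in such libraries.

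Gpx8 read 8.74, 4.46, 5.71, 7.87 and 1.77 TPM in OT1 and 88.2, 88.5, 81.2, 77 and 76.3 in tumour libraries. It had the largest difference, 13.5-fold lower on the log2(TPM + 1) scale (log2 -3.76 ± 0.28, limma adjusted p = 2.64e-07). Gsta4 read 3.94, 1.91, 1.53, 5.77 and 0.908 against 28.9, 32.2, 31.6, 42.6 and 26.9 (log2 -3.27 ± 0.31, limma adjusted p = 1.48e-06). Prdx4 read 37.9, 26.3, 21.5, 38.8 and 23.5 against 197, 201, 196, 207 and 182 (log2 -2.73 ± 0.16, limma adjusted p = 2.79e-08). Gpx8 and Prdx4 both act in the endoplasmic reticulum, and the groups of all of these genes were separate. The 6 LLC markers summed to 199, 99.7, 91.3, 163 and 45.9 TPM in OT1 replicates 1 to 5. The part of tumour transcripts in the OT1 values was not tested. Nqo1 read 1.05, 0.619, 1.03, 1.87 and 0.627 against 8.52, 11.1, 9.62, 9.01 and 9.05 (log2 -2.39 ± 0.17, limma adjusted p = 1.31e-07). Txnrd1 read 84.1, 81.6, 74.0, 72.9 and 65.1 against 238, 315, 309, 211 and 305 (log2 -1.84 ± 0.13, limma adjusted p = 1.12e-07). Gclm read 44.4, 42.1, 59.9, 29.7 and 25.1 against 113, 149.8, 161, 88.8 and 97.1 (log2 -1.60 ± 0.24, limma adjusted p = 7.23e-05). Nqo1, Txnrd1 and Gclm, classic NRF2 targets, were lower in every OT1 library than in any tumour library.

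Gsto1 differed by -1.97 ± 0.11, Gstp1 by -1.63 ± 0.11, Aifm2 by -1.47 ± 0.18 and Gstm1 by -1.43 ± 0.23 on the log2 scale. Gsr, Prdx6, Gpx4, Srxn1, Txn1, Gclc, Sod2, Prdx2, Prdx3, Abcc1, Gss and Txnrd2 were lower by 0.34 to 1.41. Nfe2l2 read 24.9, 38.5, 25.7, 32.1 and 70.9 TPM in OT1 and 76.3, 69.8, 75.9, 72.9 and 67.7 in tumour libraries (log2 -1.01 ± 0.24, limma adjusted p = 0.00214). OT1 replicate 5 reached the tumour range, and the other 4 lay well below it. Keap1 read 34.5, 38.5, 32.2, 38.9 and 35.6 against 34.5, 44.4, 44.0, 39.7 and 40.9, overlapping (log2 -0.17, limma adjusted p = 0.112).

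Hmox1 was the member with the highest rise, at 274, 603, 786, 257 and 426 TPM in OT1 and 264, 159, 259.7, 85.5 and 32.6 in tumour libraries. The spread was wide and the groups overlapped (log2 1.76 ± 0.54, limma adjusted p = 0.0116). Prdx5, a peroxiredoxin of mitochondria and peroxisomes, read 140.3, 241, 185, 194 and 350.0 against 105, 97.5, 112, 107 and 107 (log2 1.00 ± 0.19, limma adjusted p = 0.000591). Catalase read 37.4, 41.6, 35.2, 35.3 and 44.8 against 21.7, 19.9, 21.4, 22.5 and 24.3 (log2 0.79 ± 0.09, limma adjusted p = 1.13e-05). Glrx read 88.2, 146, 113, 106 and 153 against 67.5, 73.8, 68.6, 61.9 and 62.9 (log2 0.82 ± 0.14, limma adjusted p = 0.000236). For Prdx5, Cat and Glrx every OT1 library was above every tumour library. Gpx7, near its detection limit, read 1.74, 1.87, 3.0, 3.49 and 1.5 against 0.0888, 2.47, 1.11, 0 and 0.717 (log2 0.94 ± 0.32, limma adjusted p = 0.0203). Its call was lost without OT1 replicate 4 or tumour replicates 1 or 4, that of Txnrd2 without OT1 replicate 4 or tumour replicates 1, 3 or 5, and both with quantile normalization. Txn2, Glrx2, Prdx1 and Sod1 did not pass and overlapped, though Sod1 passed as lower with quantile normalization (log2 -0.27, limma adjusted p = 0.0138).

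**Figure D4:**
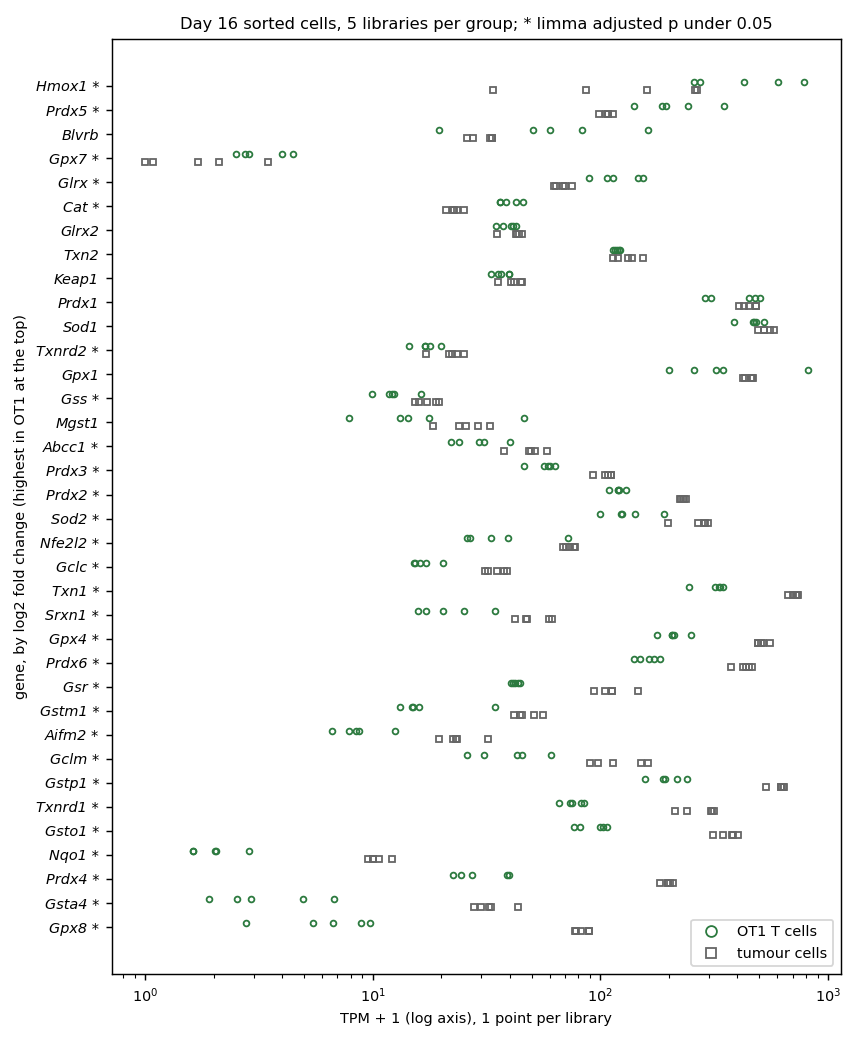
TPM + 1 on a log axis (x) of the 36 members (y, ordered by log2 difference) in each of the 5 OT1 libraries (circles) and 5 tumour libraries (squares) of day 16, with an asterisk where limma's adjusted p was under 0.05. Hmox1 is at the top with overlapping groups, and Gpx8 at the bottom, with OT1 libraries at 1.77 to 8.74 TPM and tumour libraries at 76.3 to 88.5.

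Myeloid transcripts moved with part of these values. Summed over 12 markers they were 868, 4552, 2158, 2853 and 12311 TPM in OT1 replicates 1 to 5. Gpx1, a glutathione peroxidase abundant in phagocytes, read 199, 344, 257, 322 and 813 TPM in those libraries, in the same order as the marker sum. Against 459, 429.7, 421, 463 and 466 in tumour cells it did not pass (log2 -0.39, limma adjusted p = 0.246). Prdx5, Nfe2l2, Mgst1 and Blvrb were also in the order of the marker sum, with 6.86, 16.6, 12.2, 13.3 and 45.2 for Mgst1 and 18.7, 81.8, 49.8, 59.4 and 161 for Blvrb. The share of all genes with this order is not given here, so the order cannot be read as particular to the members. Blvrb did not pass (log2 0.99, limma adjusted p = 0.0542) but did with quantile normalization (log2 1.09, limma adjusted p = 0.0369). Hmox1 did not follow that order, with its highest value in replicate 3. Whether myeloid cells account for these values was not tested.

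Without OT1 replicates 2, 4 and 5, the 3 richest in myeloid markers, 24 members were lower and 4 higher. Hmox1 differed by 1.88 (limma adjusted p = 0.0451), Prdx5 by 0.61, Cat by 0.70 and Glrx by 0.57, and of these Prdx5 moved most. Gpx1 and Mgst1 were then lower, by 0.98 (limma adjusted p = 3.21e-05) and 1.33 (limma adjusted p = 0.000903). Nfe2l2 was lower by 1.48, and Blvrb lay at 0.05. Gpx7 was not tested there, and Txnrd2 no longer passed (log2 -0.36, limma adjusted p = 0.0675). Erythroid marker sums also varied, from 65.0 to 2781 TPM in OT1 and 10.1 to 899 in tumour libraries.

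**Figure D5:**
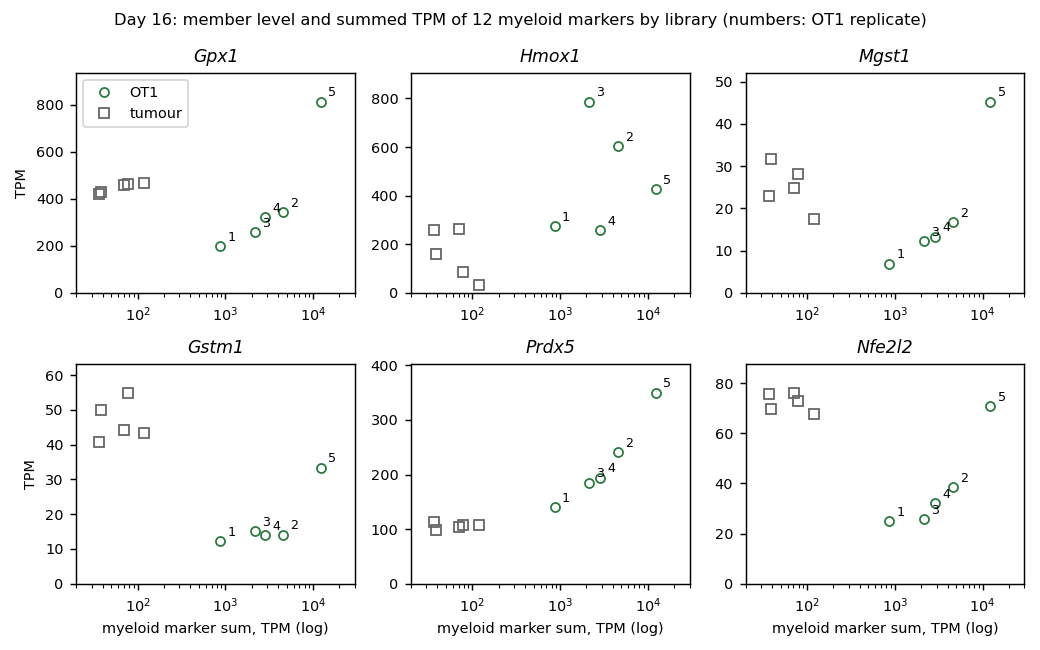
TPM (y axis, from 0) of 6 members, chosen after their values were seen, against the summed TPM of 12 myeloid markers (x axis, log scale) in each OT1 library (circles, numbered by replicate) and tumour library (squares). Gpx1, Mgst1, Prdx5 and Nfe2l2 are highest among OT1 libraries in replicate 5, which has the highest marker sum, and Hmox1 is highest in replicate 3.

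Of 55 further pathway genes tested on day 16, 12 were higher and 30 lower in OT1 cells. Gstt2 (34.1 ± 3.39 against 1.97 ± 0.457 TPM, log2 3.57), the exporter gene Abcc3 (log2 2.89) and Txnip (213 ± 112 against 47.2 ± 15.7 TPM, log2 2.08) were the highest. The NADPH-making malic enzyme gene Me1 (3.40 ± 2.04 against 40.2 ± 7.87 TPM, log2 -3.33), Gstm2 (-3.21) and Gstm5 (-2.62) were the lowest.

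Some members share sequence with near-identical copies or overlapping genes, so their levels are uncertain where reads could be split. In GENCODE M21, the share of 31-base words of the transcript found in other genes was 67.5% for Gstp1 (Gstp2 and Gstp-ps), 66.8% for Gpx4 (Gpx4-ps2), 35.4% for Sod1 (Gm8566), 34.3% for Gstm1 (Gstm2-ps1 and Gstm3), 31.7% for Prdx2 and 18.1% for Prdx1. For Prdx5 it was 30.8%, all with the overlapping gene Trmt112, and for Keap1 11.9% with Gm16754. Gpx4-ps2 carried 72.7 ± 3.30 TPM in control LLC cells beside 474 ± 14.3 for Gpx4, while Gstm3 and Txn-ps1 were at 0 there. The sources used here do not say whether counting used the strand.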

How the data were processed

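Mouse RNA-seq was analysed in 28 libraries of 8 groups, assigned from sample titles. Per the submitters' processing notes, reads were handled with STAR 2.6.1d, Salmon 0.14.1 (36 h) or 0.13.1 (32 h and day 16) and DESeq2 1.34.0 by the authors, with mm10 named as the build. The 36 h file holds DESeq2-normalized counts made by the authors. They are a signal scaled between libraries by the authors, and whole reads could not be recovered: 59.1 to 69.1% of low values were whole within 0.02. The 32 h and day 16 files hold TPM as deposited by the authors, scaled to a fixed sum, so that depth is unknown. For each 32 h contrast the authors deposited log2 fold changes, adjusted p-values and standard errors, the last treated as a score; no step before these is recorded in the sources used here.
Values were tested with limma 3.58.1 (R 4.3.3) on log2(value + 1), with Benjamini-Hochberg adjustment over all genes at or above 10 normalized counts or 1 TPM in at least 3 culture or 5 day 16 libraries. The 12 libraries of the 32 h experiment shared 1 fit. The procedure was tested on simulated data. The members, the list of 64 pathway genes and the 42 cell type markers were chosen with earlier results of these data known. Up to 10 members higher and 10 lower per contrast were named, by size of change, Nfe2l2 and Keap1 always, and up to 3 pathway genes each way whose mean reached 5 TPM, or 50 normalized counts, in either group. Other members are given by count, range or value for completeness. Alternatives changed the pseudocount, the filter, the scaling, the libraries and a replicate block. The 24 columns of the 32 h table that match no sample were not used.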

Additional observations from a re-analysis of the deposited data

Results flagged for a closer look

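In 7 of 72 groups of day 16, a single library lay far from the other 4 by Dixon's criterion, which chance meets in about 1 group in 20. In OT1 replicate 5, the library with the most myeloid transcripts, Gpx1 was at 813 TPM against 199 to 344 in the other 4, Gstm1 at 33.3 TPM against 12.3 to 15.1 in the other 4 and Mgst1 at 45.2 TPM against 6.86 to 16.6 in the other 4. Txn1 was low there, at 245 TPM against 317 to 346 in the other 4. In tumour replicate 4, Gstp1 was at 535 TPM against 618 to 638 in the other 4 and Sod2 at 198 TPM against 268 to 295 in the other 4. In tumour replicate 1, Glrx2 was at 34.1 TPM against 41.8 to 44.3 in the other 4.

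The response to BAY-876 differed with TNF present by limma's interaction test for 8 members. The log2 values were 0.89 for Blvrb, 0.64 for Hmox1, 0.50 for Gsta4, 0.44 for Txnrd1, 0.38 for Gstm1, 0.34 for Sod2, 0.30 for Nfe2l2 and 0.28 for Prdx6.

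For 9 of the 35 members tested in both BAY-876 experiments, all treated libraries lay above vehicle at 36 h and below control at 32 h. The log2 changes at 36 h and 32 h were 0.28 and -0.82 for Cat, 0.34 and -0.45 for Txnrd2, 0.40 and -0.35 for Blvrb, 0.22 and -0.24 for Gsta4 and 0.17 and -0.26 for Prdx1. They were 0.23 and -0.18 for Gpx4, 0.10 and -0.22 for Prdx4, 0.27 and -0.050 for Sod1 and 0.24 and -0.053 for Nfe2l2. At 32 h Nfe2l2 lay at 0.026 with quantile normalization and at 0.047 in the authors' deposited table, where Sod1 lay at 0.051. Gpx4, Gsta4, Prdx4 and Blvrb had an adjusted p above 0.05 there. Of the 12086 genes tested in both experiments, 5.01% had the same pattern. The difference between the experiments was not tested.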

How the results depend on the processing

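The number of members called moved by over 1.5 times in 2 comparisons. At 36 h it was 4, with 7 at a mean of at least 100 normalized counts and 2 to 9 on leaving out each library in turn, while all genes called went from 1868 to between 648 and 2394. For the interaction it was 8, with 5 without a filter on low values and 4 to 7 on leaving out each library, while all genes called went from 199 to between 110 and 250. The cause was not tested. In the other 5 comparisons the counts of members stayed within 1.5 times under the alternatives run. Among the values of members named by the rule, recomputed under each alternative, 1254 stayed on their side of the threshold, 108 lost it and 4 passed it newly. None that passed changed direction. Of those that did not pass, Nfe2l2 with BAY-876 alone at 32 h went from log2 -0.053 to 0.026 with quantile normalization.

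Deviations of same-numbered libraries had r between -0.07 and -0.02 (36 h), between -0.19 and 0.12 (32 h) and between 0.05 and 0.11 (day 16). Different-numbered pairs of day 16 had r between -0.17 and 0.11. Libraries correlated best with their own number in 0 of 6 (36 h), 14 of 36 (32 h) and 7 of 10 (day 16) cases. The labels do not tie numbers to mice. Whether day 16 libraries of the same number are paired is therefore unknown, and the main test there was unpaired. With the replicate block the members called numbered 4 at 36 h, 21 for BAY-876, 25 for TNF, 23 for TNF after BAY-876, 20 for BAY-876 with TNF, 6 for the interaction (5 of the 8 kept) and 29 on day 16. The median of all genes on day 16 moved by 0.19 without a filter, by -0.11 without OT1 replicate 1 and by -0.12 without the 3 myeloid-rich libraries. Depth is unknown for TPM, which leaves low genes such as Gpx7 and Nqo1 least certain.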
